A study of Mus musculus with 8 samples.

Results

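Kidneys of knockout mice without ischemia-reperfusion (I/R) were compared with kidneys of wild-type mice without I/R, 2 libraries of each, across all genes whose FPKM averaged 1 or more in the 8 libraries of the study. FPKM counts sequenced fragments, scaled by gene length and library size. Of 54965 genes in the table, 13304 met that mean, and 508 of them met it only through the I/R libraries. Primpol lay just outside the limit at 0.999 FPKM and Adamts7 just inside at 1.00. The knockout is named Utx Pax2-Cre in the labels: Utx (gene symbol Kdm6a) is targeted by a Cre recombinase under control of Pax2, which encodes a transcription factor of the lineages that form the kidney. The deleted part of the gene, the strain, age and sex of the mice, and whether the wild-type mice carry a floxed allele or Cre are not stated in the labels. The shared protocol mentions a sham operation, and no label says which of these mice had one, so the 4 libraries are described here only as without I/R. The other 4 libraries are wild type and knockout 3 days after I/R, an injury made by stopping and restoring the blood flow of the kidney. Whole kidney also holds vessels, blood cells and other cells outside the Pax2 lineage, so RNA of cells with an intact Utx gene is part of each knockout library.

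UTX removes methyl groups from lysine 27 of histone H3, a mark laid down by Polycomb repressive complex 2 and linked to silent genes. It is also a subunit of the COMPASS complexes built around the methyltransferases MLL3 and MLL4 (genes Kmt2c and Kmt2d), which mark enhancers. Kdm6a lies on the X chromosome and escapes X inactivation, and its Y-linked relative Uty encodes a protein with little demethylase activity. In kidney development Pax2 marks both the ureteric bud and the mesenchyme that forms nephrons.

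Reads in genes came to between 16780542 and 18497835 per library. Kidney markers were present in all 4 libraries without I/R, among them Slc34a1 of the proximal tubule (1469 to 1804 FPKM) and Umod of the thick ascending limb (1078 to 1579 FPKM). Xist stood at 0 to 0.0142 FPKM and the Y-linked gene Ddx3y at 10.7 to 11.6 FPKM, a male pattern in all 4. Wild type 1 stood apart by transcripts of lymphoid tissue and fat: the B cell gene Cd79a had 6.94 FPKM there and at most 0.721 in the other 3 libraries, and the fat hormone gene Adipoq had 2.90 FPKM there and at most 0.10 elsewhere. The macrophage receptor gene Marco had 8.92 FPKM there and at most 0.0642 elsewhere. For this reason each difference below was also taken against wild type 2 alone. The 2 knockout libraries differed from each other more than the 2 wild-type libraries did, with a median absolute log2 difference per gene of 0.156 against 0.103. The labels do not tie libraries to animals, so a p-value here covers the spread between samples, which may be technical.

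**Figure D1:**
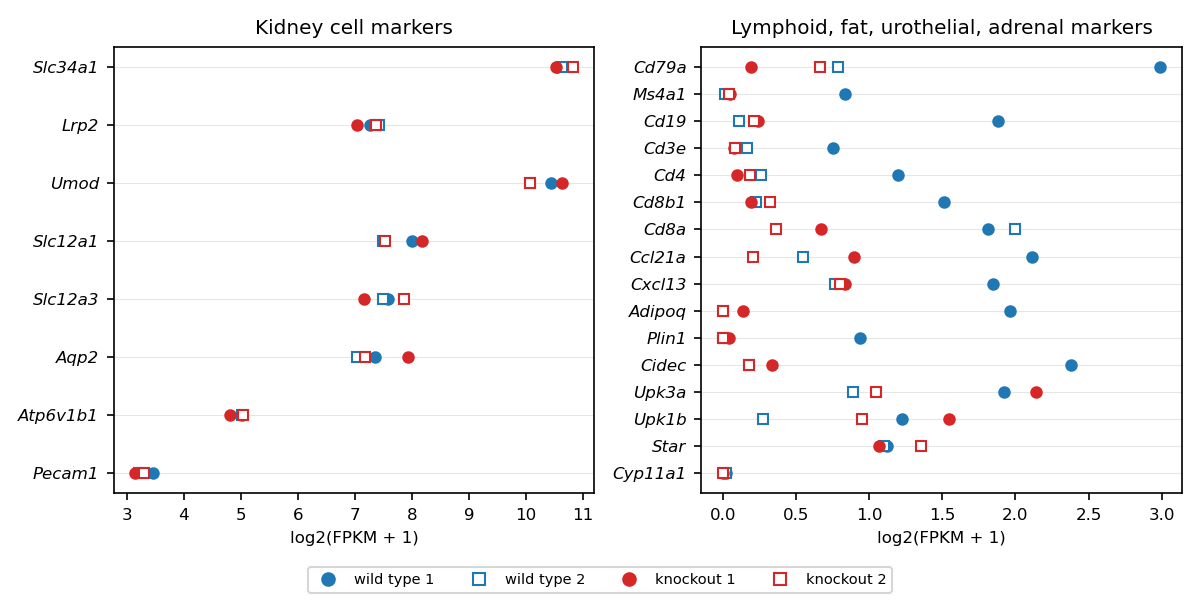
Levels of kidney cell markers (left) and of lymphoid, fat, urothelial and adrenal markers (right), as log2(FPKM + 1), in the 4 libraries without I/R, 1 symbol per library. On the right, wild type 1 lies apart from the other 3 libraries for the lymphoid and fat genes other than Cd8a, while Upk3a and Upk1b, the urothelial genes, are high in wild type 1 and knockout 1.

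The comparison asks which genes differ between the genotypes without I/R. Values of single genes are given as FPKM in the order wild type 1, wild type 2, knockout 1 and knockout 2, and differences as knockout minus wild type on the log2(FPKM + 1) scale with their standard error (SE). Called genes are those with an adjusted p under 0.05 in limma (Benjamini-Hochberg over all tested genes). One gene of 13304 was called, which is 0.00752% of those tested, and the next smallest adjusted p was 0.0792. The count at an unadjusted p under 0.05 was 1233 (9.27%), of which 690 lay above wild type (5.19%) and 543 below (4.08%). Both knockout libraries lay above both wild-type libraries for 2864 genes (21.5%) and below them for 2195 (16.5%), 38% of genes in all. These 4 directional shares are the background against which the gene lists below are read. The median difference over all genes was 0.02, and the 5th and 95th percentiles were −0.34 and 0.30. The median absolute difference between the group means, 0.107, was about as large as that between the 2 wild-type libraries. Leaving out knockout 2 raised the count at an unadjusted p under 0.05 to 2385. Leaving out wild type 2 gave 6 called genes, which were Gm11702 and the lymphocyte and macrophage genes Ighm, Arhgap45, Rac2, Cd209b and Marco, all lower in knockout than in wild type 1. Apart from Gm11702, every gene named below missed the threshold, so its values are a description of these 4 libraries.

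The targeted gene, Kdm6a (ENSMUSG00000037369, GRCm38 chrX:18162575-18279936, plus strand), had 2.57, 2.94, 1.99 and 1.91 FPKM. Both knockout libraries lay below both wild-type libraries, with a difference of −0.35 (SE 0.0985, adjusted p = 0.431 in limma) and of −0.42 against wild type 2 alone. After I/R the wild-type libraries had 3.00 and 2.97 FPKM and the knockout libraries 1.59 and 1.83, a difference of −0.56 that passed the test (adjusted p = 0.0295 in limma). Since the deleted part is not known, reads from the remaining exons of a deleted allele and reads from cells outside the Pax2 lineage cannot be told apart. Uty had 2.37, 2.78, 2.89 and 2.56 FPKM, and its groups overlapped. Kdm6b, which encodes JMJD3, the other demethylase of this mark, had 8.24, 9.81, 7.75 and 9.21 FPKM and overlapped as well.

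Among 17 tested genes of UTX, the COMPASS complexes and Polycomb repressive complex 2, 2 lay below wild type at an unadjusted p under 0.05 (all genes 4.08%). These were Kdm6a and Ezh1, and none lay above (all genes 5.19%). Ezh1, a methyltransferase of lysine 27 of histone H3, had 11.4, 11.1, 9.28 and 9.70 FPKM (−0.22, SE 0.0643). Kmt2c had 2.76, 3.41, 2.5 and 2.54 FPKM, with no overlap, and Kmt2d had 7.12, 7.96, 5.60 and 7.17 FPKM, with overlap. In all, 5 of the 17 lay below with no overlap, against 16.5% of all genes, and the list's median was −0.07, with −0.12 against wild type 2 alone and 0.02 without wild type 2. Pax2 itself, whose promoter drives the Cre, had 9.39, 6.52, 13.2 and 10.7 FPKM. It lay above wild type in both knockout libraries (0.55, SE 0.163), and by 0.78 against wild type 2 alone.

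Gm11702 (ENSMUSG00000084277), the called gene, is annotated as a processed pseudogene with a length of 69 bases at GRCm38 chr11:115657491-115657559 on the minus strand. It lies within an intron of Grb2, which is on the same strand, and touches 0 Grb2 exons. Its sequence is shown because it decides what its reads can be assigned to: all 69 bases are identical to a stretch of Dctn1 on chromosome 6 (GRCm38 chr6:83199743-83199811). There they lie in 1 exon and end on the stop codon of all 5 Dctn1 transcripts that hold them. Dctn1 encodes the largest subunit of dynactin, a partner of the motor protein dynein. The stop codon is in capitals.
Gm11702: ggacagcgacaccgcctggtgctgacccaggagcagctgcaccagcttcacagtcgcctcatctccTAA

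Gm11702 had 9 and 7 reads in wild type 1 and 2 and 0 reads in both knockout libraries, or 8.30, 6.27, 0 and 0 FPKM. Its wild-type mean was 2.57-fold the floor of a count of 0, taken as 3 reads per library (3.01 and 2.65 FPKM in knockout 1 and 2). This fold takes the few wild-type reads as exact, so it is not a lower limit of the difference. The fitted difference was −3.04 (SE 0.126, adjusted p = 8.74e-04 in limma), and it depends on the pseudocount. This floor takes account of counting error alone, because PCR copies of a molecule are counted as separate reads. After I/R wild type had 13 and 16 reads and knockout 8 and 8, all above 0 (−0.69, adjusted p = 0.0318). Dctn1 had 2401, 2381, 2083 and 2801 reads without I/R and Grb2 had 844, 899, 842 and 1036, so the matching gene and the host gene had reads in every library. Whether the reads come from Gm11702 or from Dctn1 cannot be told apart by this sequence. The call was lost with only the 4 libraries without I/R in the fit (adjusted p = 0.0618) and with limma-voom on reads recovered from FPKM (adjusted p = 0.341).

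**Figure D2:**
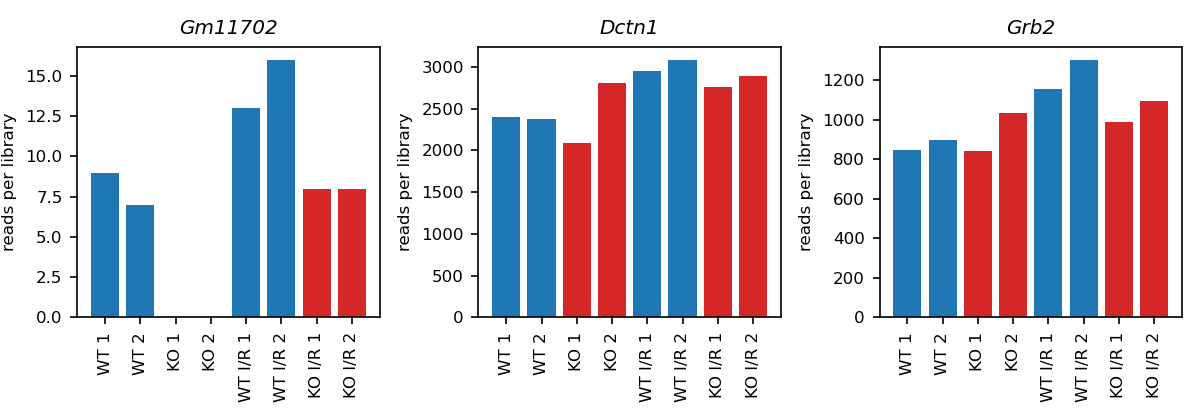
Reads per library (vertical axes, each from 0) of Gm11702, of Dctn1, which holds its whole sequence, and of Grb2, in whose intron it lies, in the 8 libraries (WT wild type, blue; KO knockout, red). Gm11702 has 0 reads in both knockout libraries without I/R and 8 in both with I/R, and the other 2 genes have reads in every library.

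Among protein-coding genes outside the immunoglobulin and T cell receptor families, Cd8a stood out. It encodes the alpha chain of the CD8 coreceptor, found on cytotoxic T cells and on some dendritic cells. Cd8a had 2.52, 2.99, 0.590 and 0.285 FPKM (−1.39, SE 0.156, adjusted p = 0.220 in limma), and its difference against wild type 2 alone, −1.48, was as large. Its partner Cd8b1 had 1.84, 0.167, 0.140 and 0.247 FPKM, and the T cell genes Cd3e (0.686, 0.121, 0.0509 and 0.0598 FPKM) and Cd4 (1.29, 0.199, 0.0686 and 0.136 FPKM) followed the same pattern. Those 3 were high in wild type 1 only, while Cd8a was as high in wild type 2. In whole kidney, fewer cells of a type and less RNA per cell cannot be told apart.

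The other lymphoid differences went with wild type 1. All 9 tested of 20 entries of the B and plasma cell list lay below wild type on average, with a median of −1.31. At an unadjusted p under 0.05, 4 did so (all genes 4.08%). Cd79a met the mean of 1 FPKM only through wild type 1 (6.94 FPKM there and at most 0.813 in any other library). For such a member the filter itself favours a value below wild type. Against wild type 2 alone the median was −0.35 and 3 of the 9 were positive. The summed level of the list's 20 genes was 952, 350, 278 and 161 FPKM. The kappa constant gene Igkc had 609, 230, 180 and 103 FPKM, and Jchain, which joins secreted IgA and IgM, had 45.9, 18.4, 15.7 and 8.22. Igha and Iglc2, other constant genes, had 202, 89.2, 70.1 and 40.8 FPKM and 12.8, 3.94, 2.37 and 1.89. Wild type 2 thus lay nearer to the knockouts than to wild type 1 for these genes, although both knockouts were still below it. Of 20 T and NK cell entries 6 were tested. Their median was −1.04, and −0.40 against wild type 2 alone, and their summed level over 20 genes was 41.1, 14.1, 8.38 and 9.25 FPKM. The T cell receptor constant gene Trbc1 had 4.33, 1.16, 0.277 and 0.733 FPKM. Trbc1 too met the mean of 1 FPKM only through wild type 1, so the counts and medians of both lists take in such members. Genes of receptor families share sequence, so reads of single members are uncertain.

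In all, 107 genes differed by at least 1 on the log2 scale, 15 above and 92 below. Immunoglobulin and T cell receptor segments made up 48 of the 107, and 47 of these lay below. Segments that met the mean of 1 FPKM only through wild type 1, such as Trbc1, were favoured to lie below by that filter, and their number was not counted. Against wild type 2 alone 13 of the 48 still differed by at least 1. Of the 14 other protein-coding genes in this range 8 did so against wild type 2 alone. The lymph node list (6 tested) had a median of −0.76 that became 0.02 against wild type 2 alone. For erythroid genes (8 tested) it was −0.40 and became −0.03. Hemoglobin gene Hba-a1 stood at 292, 139, 152 and 127 FPKM, and was highest in wild type 1 too. The part that these other cells have in the differences of kidney genes was not tested beyond the comparison with wild type 2.

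Many genes of protein folding lay below both wild-type libraries in both knockout libraries. Heat shock proteins bind unfolded proteins in the cytosol, and heat shock factor 1 induces many of them. Of 23 tested, 8 lay below at an unadjusted p under 0.05 (all genes 4.08%) and none above, and 13 lay below with no overlap (all genes 16.5%) and none above. The median was −0.11, and −0.15 against wild type 2 alone. Hspa8, the constitutive HSP70, had 683, 799, 520 and 453 FPKM (−0.60, SE 0.114). Its exchange factor Hsph1 had 32.8, 39.9, 23.3 and 21.1 FPKM (−0.68, SE 0.131). The stress-inducible pair Hspa1a and Hspa1b, near-identical neighbours whose reads can be exchanged, had 6.41, 7.09, 4.41 and 3.09 FPKM and 14.8, 20.1, 10.9 and 7.23 FPKM. All 4 of these genes lay below both wild-type libraries in both knockouts, and knockout 2 was the lowest library for each. Without knockout 1 the list's median was −0.23 and without knockout 2 it was −0.07.

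Chaperones of the endoplasmic reticulum (ER), which fold secreted and membrane proteins and are induced by the unfolded protein response, gave a similar count. Of 22 tested, 7 lay below at an unadjusted p under 0.05 (all genes 4.08%) and none above (all genes 5.19%). With no overlap 12 lay below (all genes 16.5%) and 1 above (all genes 21.5%), and the median was −0.18. Against wild type 2 alone 19 of 22 were negative with a median of −0.20, and without wild type 2 the median was −0.09. Creld2, an ER stress-induced folding factor, had 45.9, 62.8, 37.8 and 34.3 FPKM (−0.56, SE 0.141). Manf, a secreted ER stress protein, had 25.2, 30.4, 21.9 and 18.6 FPKM (−0.44, SE 0.119). Xbp1, the transcription factor activated by the ER sensor IRE1, had 56.2, 64.1, 50.7 and 42.3 FPKM (−0.37, SE 0.108). Pdia4, a disulfide isomerase, had 58.7, 63.7, 48.8 and 46.4 FPKM (−0.35, SE 0.0790). Knockout 2 was again the lowest library for all 4.

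Many of these chaperone promoters hold the ER stress element, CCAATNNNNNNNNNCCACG, which binds ATF6 together with NF-Y. A search of both strands of the 300 bases from 250 before to 50 after each gene start (RefSeq, GRCm38.p6) found these letters in 7 of the 19 list members that have a window, namely Hspa5, Hsp90b1, Dnajc3, Pdia6, Calr, Canx and Creld2. Of all 27025 genes with a window 37 (0.137%) hold them. The element was chosen for display after the values had been seen. The 250 bases before the start of 3 of these genes are printed, on the gene's strand and with the element in capitals, because they carry the same letters while their levels differ: Hspa5 and Creld2 lay below wild type in both knockouts and Pdia6 did not.
Hspa5, chr2:34771840-34772089, plus strand: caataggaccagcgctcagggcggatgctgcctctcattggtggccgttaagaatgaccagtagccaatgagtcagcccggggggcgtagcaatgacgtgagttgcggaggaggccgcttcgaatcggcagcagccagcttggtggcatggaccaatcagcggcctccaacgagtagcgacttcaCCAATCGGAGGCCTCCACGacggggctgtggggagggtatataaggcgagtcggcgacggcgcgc
Creld2, chr15:88819396-88819645, plus strand: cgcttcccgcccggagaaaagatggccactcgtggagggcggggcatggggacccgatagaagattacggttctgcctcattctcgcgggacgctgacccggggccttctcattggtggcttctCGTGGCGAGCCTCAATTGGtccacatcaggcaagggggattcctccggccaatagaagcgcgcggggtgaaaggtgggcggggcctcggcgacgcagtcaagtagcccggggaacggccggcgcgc
Pdia6, chr12:17266339-17266588, plus strand: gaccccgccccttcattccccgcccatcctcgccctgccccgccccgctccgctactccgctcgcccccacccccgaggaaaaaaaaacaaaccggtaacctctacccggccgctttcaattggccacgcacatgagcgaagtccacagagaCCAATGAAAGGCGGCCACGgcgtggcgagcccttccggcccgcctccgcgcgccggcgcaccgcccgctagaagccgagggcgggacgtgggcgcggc

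The element begins 65 bases before the start in Hspa5, 126 in Creld2, where it reads on the other strand, and 98 in Pdia6. Hspa5 encodes BiP, the main ER chaperone, and had 178, 213, 158 and 142 FPKM (−0.38, SE 0.132). Pdia6, a disulfide isomerase, had 55.7, 60.3, 62.0 and 56.4 FPKM, with overlap. The 7 list members with the element had a median of −0.03, and 2 of them lay below at an unadjusted p under 0.05. The other 15 tested, which lack these letters or have no window, had a median of −0.19, and 5 of them lay below. A heat shock element, GAANNTTCNNGAA, was found in 4 of 17 heat shock list members with a window (Hsph1, Hspd1, Hspe1 and Chordc1) and in 0.662% of all genes.

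Genes of the mitochondrial respiratory chain that are encoded in the nucleus lay on the other side. All 35 tested were positive, with differences of 0.04 to 0.37 and a median of 0.17. Of these 24 lay above with no overlap (all genes 21.5%) and none below, and 4 did so at an unadjusted p under 0.05 (all genes 5.19%). Against wild type 2 alone 34 of 35 were positive with a median of 0.16. Ndufb8 of complex I had 46.2, 48.8, 67.4 and 56.4 FPKM (0.37, SE 0.114), and Ndufa8 had 175, 177, 229 and 203 (0.29, SE 0.0890). Cox5a of complex IV had 94.0, 94.0, 120 and 106 FPKM. In each of these 3 genes knockout 1 was the highest library. Without knockout 1 the median of the 35 genes was 0.06, and without knockout 2 it was 0.28. Of the 13 mitochondrially encoded genes 1 lay above and 2 below with no overlap, and their median was 0.04, with −0.04 without knockout 1 and 0.16 without knockout 2. The difference between the 2 lists was not tested.

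Of 17 genes of the tricarboxylic acid cycle, which feeds electrons to that chain, 16 were positive. With no overlap 10 lay above (all genes 21.5%) and none below (all genes 16.5%). The median was 0.09. At an unadjusted p under 0.05, 1 gene lay above (all genes 5.19%) and none below (all genes 4.08%). It was Idh3a, a subunit of isocitrate dehydrogenase with 40.3, 38.5, 47.0 and 45.0 FPKM. For fatty acid oxidation, the main fuel pathway of the proximal tubule, 11 of 30 tested lay above with no overlap (all genes 21.5%). The 5 that lay below were near the share of all genes (16.5%). At an unadjusted p under 0.05 the lean was the other way, with 1 above (all genes 5.19%) and 3 below (all genes 4.08%). The median was 0.05, with −0.02 without knockout 1 and 0.15 without knockout 2. Ppara, the nuclear receptor that controls this pathway, had 19.5, 21.3, 9.36 and 15.2 FPKM (−0.72, SE 0.197). Cpt1a, for the entry of fatty acids into mitochondria, also lay below, with 143, 156, 111 and 129 FPKM (−0.32, SE 0.0956). Acaa2, the last enzyme of mitochondrial oxidation, lay above with 164, 174, 196 and 214 FPKM (0.27, SE 0.110).

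Genes of cholesterol synthesis and uptake, which share the regulator SREBP2, mostly lay above wild type. Of 21 tested 20 were positive. At an unadjusted p under 0.05, 6 lay above (all genes 5.19%), and with no overlap 11 did (all genes 21.5%). None lay below by either count (all genes 4.08% and 16.5%). The median was 0.21, 0.28 against wild type 2 alone and 0.13 without wild type 2. Cyp51 had 63.7, 54.2, 84.2 and 71.4 FPKM (0.39, SE 0.112), and Dhcr7, the enzyme of a last step, had 4.08, 3.89, 5.42 and 5.71 (0.40, SE 0.0865). Msmo1 had 5.31, 4.11, 6.44 and 6.60 FPKM (0.41, SE 0.137), and Acat2, which condenses acetyl-CoA, had 56.8, 53.9, 62.2 and 65.4 (0.20, SE 0.0689).

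Genes known as targets of NRF2, the transcription factor of the antioxidant response, had 16 tested members. At an unadjusted p under 0.05, 6 of the 16 lay above (all genes 5.19%) and 1 below (all genes 4.08%). With no overlap 8 lay above (all genes 21.5%) and 1 below (all genes 16.5%). The median was 0.16, and 0.04 without knockout 1. The Gsta genes encode alpha class glutathione S-transferases, which couple glutathione to electrophiles. Gsta2 had 152, 149, 223 and 257 FPKM (0.67, SE 0.102), Gsta4 had 15, 14.3, 19.6 and 20.0 (0.41, SE 0.0895), and Gsta1 had 0.599, 0.517, 1.45 and 2.43 (0.89, SE 0.248). Gsta1 and Gsta2 are close in sequence, so their reads can be exchanged. Gclc, the rate-limiting enzyme of glutathione synthesis, had 77.7, 74.4, 105 and 91.2 FPKM (0.36, SE 0.0998). None of these differences recurred after I/R. Gsta2 stood at −0.0025 there, and Gsta4, Gsta1 and Gclc turned to −0.22, −0.77 and −0.22, none of them called. The list's median after I/R was −0.22.

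Clock genes were looked at because they depend on the hour at which a kidney is taken, which the labels do not give. Of 12 core clock genes tested 3 lay below at an unadjusted p under 0.05 (all genes 4.08%) and none above. With no overlap 5 lay below (all genes 16.5%) and 2 above (all genes 21.5%). The median was −0.13, and it lay between −0.18 without knockout 1 and −0.07 without wild type 2. The repressor gene Per2 had 18.0, 19.4, 11.8 and 14.7 FPKM (−0.48, SE 0.125). Nr1d1, which encodes the repressor REV-ERB alpha, had 25.1, 26.7, 19.6 and 22.0 FPKM (−0.30, SE 0.0880), and its opponent Rora had 5.27, 6.33, 5.00 and 4.23 (−0.28, SE 0.106). All 9 tested clock output genes were negative, 3 of them with no overlap (all genes 16.5%). Among these 3 was the transcription factor gene Tef with 72.0, 74.5, 66.6 and 60.8 FPKM. An E-box, CACGTG, the site of CLOCK and BMAL1, was found in 2 of 11 core and 3 of 8 output genes with a window and in 8.09% of all genes. A D-box, TTATGTAA, was found in 1 of 11 and 0 of 8, and in 1.11% of all genes.

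Glucocorticoid and fasting responsive genes depend on stress and feeding before collection. Of 21 tested 10 lay below (all genes 16.5%) and 2 above (all genes 21.5%) with no overlap, with a median of −0.28. At an unadjusted p under 0.05, 3 lay below (all genes 4.08%) and 2 above (all genes 5.19%). Without knockout 2 the median was −0.03. Errfi1, an inhibitor of the EGF receptor, had 259, 291, 226 and 184 FPKM (−0.43, SE 0.117). The genes that lay above were metallothioneins, small zinc-binding proteins: Mt1 had 92.8, 87.2, 124 and 107 FPKM, and Mt2 had 0.325, 0.210, 1.29 and 1.25. Hour of collection, feeding and handling were not tested, since the labels do not give them.

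**Figure D3:**
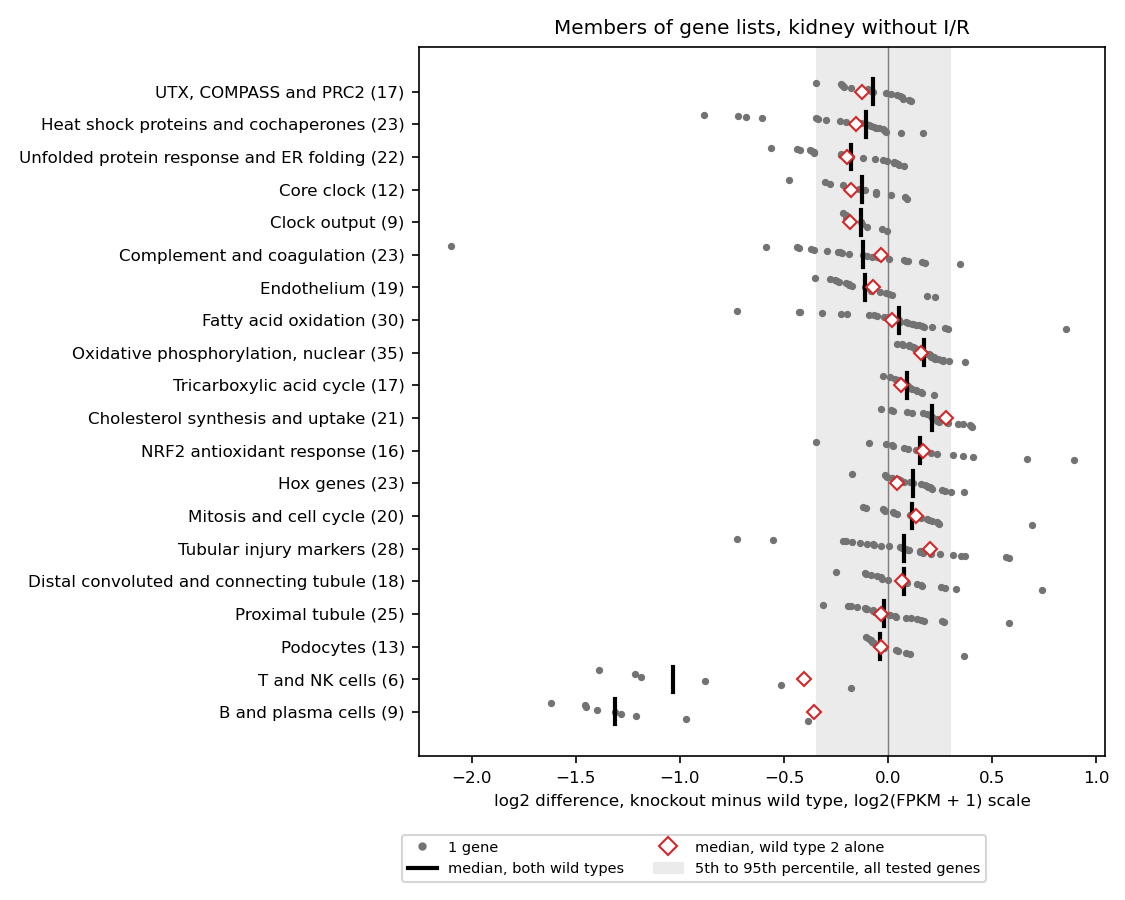
Log2 differences between knockout and wild type without I/R (horizontal axis) of the tested members of 20 gene lists, with the number tested in brackets. Each grey point is 1 gene, the black bar the median, the red diamond the median against wild type 2 alone and the grey band the 5th to 95th percentile of all 13304 genes (−0.34 to 0.30). The B and T cell medians move toward 0 against wild type 2 alone, and those of the heat shock, ER folding and oxidative phosphorylation lists stay on the same side of 0.

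Along the nephron, the distal convoluted and connecting tubule list had 3 of 18 tested above at an unadjusted p under 0.05 (all genes 5.19%). None lay below. With no overlap the list had 5 above (all genes 21.5%) and 1 below (all genes 16.5%). Its leading gene was Calb1, the calcium buffer calbindin, with 111, 110, 169 and 203 FPKM (0.74, SE 0.158). S100g, a second calcium-binding protein of this segment, had 1093, 1051, 1372 and 1221 FPKM (0.27, SE 0.111). Klk1, tissue kallikrein, had 1836, 1745, 2194 and 2292 FPKM (0.33, SE 0.123). All 3 lay above wild type in both knockout libraries, and all 3 were called in the same direction after I/R, by 1.99, 1.85 and 1.35 (adjusted p = 0.00811, 0.00288 and 0.00824 in limma). This is not particular to these 3, because 12 of the 18 genes of the list were called higher in knockout after I/R, with a list median of 0.89. The marker of the first of these segments, Slc12a3, had 192, 179, 142 and 231 FPKM and overlapped.

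In the proximal tubule list 3 of 25 lay above at an unadjusted p under 0.05 (all genes 5.19%) and none below (all genes 4.08%). With no overlap 3 lay above (all genes 21.5%) and 1 below (all genes 16.5%), both under the shares of all genes. The median was −0.02, with 0.04 without knockout 1. The 3 above at an unadjusted p under 0.05 included Gatm, the first enzyme of creatine synthesis (222, 273, 309 and 438 FPKM). The others were the gluconeogenic enzyme gene Fbp1 (726, 766, 895 and 904 FPKM) and Keg1 (367, 361, 434 and 437 FPKM). Of 16 intercalated cell genes 1 lay above (all genes 5.19%) and 2 below (all genes 4.08%) at an unadjusted p under 0.05. With no overlap 7 lay below (all genes 16.5%) and 1 above (all genes 21.5%). Car2, cytosolic carbonic anhydrase, had 149, 161, 195 and 203 FPKM (0.36, SE 0.0931). The chloride-bicarbonate exchanger pendrin, Slc26a4, had 32.5, 36.9, 26.6 and 29.5 FPKM (−0.30, SE 0.0931), and the homeobox gene Hmx2 had 3.92, 4.65, 3.14 and 3.00 (−0.37, SE 0.123). Pendrin marks the intercalated cells that secrete bicarbonate. In the thick ascending limb list, Cldn16, a tight junction gene for magnesium, had 9.17, 9.44, 11.3 and 10.8 FPKM. The list had 1 of 14 above at an unadjusted p under 0.05 (all genes 5.19%) and none below (all genes 4.08%). With no overlap 3 lay above (all genes 21.5%) and 1 below (all genes 16.5%). None of 13 podocyte genes lay apart with no overlap (all genes 38%).

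Hox genes, classical targets of Polycomb repression and of its reversal, keep the positional code of the kidney. Of 23 tested 3 lay above at an unadjusted p under 0.05 (all genes 5.19%) and 9 with no overlap (all genes 21.5%). None lay below by either count. The median was 0.12, and 0.04 against wild type 2 alone. Hoxb8 had 11.8, 11.4, 14.3 and 14.2 FPKM (0.27, SE 0.0626), Hoxc9 had 2.59, 3.03, 3.64 and 4.17 (0.37, SE 0.0988) and Hoxc10 had 7.83, 7.71, 9.32 and 8.63 (0.18, SE 0.0750). The differences of Hoxb8 and Hoxc10 lay below the 95th percentile of all genes, 0.30, and that of Hoxc9 lay above it. After I/R Hoxb8 was called in the opposite direction (−0.32, adjusted p = 0.0371 in limma). Hoxc10 stood at −0.05 and Hoxc9 at 0.13 there, neither of them called, and the list's median was 0.04. Of 26 transcription factors of the nephron lineage 2 lay above at an unadjusted p under 0.05 (all genes 5.19%), Pax2 and Gata3. None lay below (all genes 4.08%). With no overlap 5 lay above (all genes 21.5%) and 2 below (all genes 16.5%), neither beyond the share of all genes. Gata3, a factor of the ureteric bud and collecting duct, had 2.94, 2.81, 3.51 and 3.74 FPKM.

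Of 28 tested genes that mark injured tubules, 18 had a positive and 10 a negative difference without I/R. At an unadjusted p under 0.05, 4 lay above (all genes 5.19%) and 1 below (all genes 4.08%). With no overlap 6 lay above (all genes 21.5%) and 3 below (all genes 16.5%). The median was 0.08, and 0.20 against wild type 2 alone. Without wild type 2 it was 0.00036, and without knockout 1 it was −0.05. Spp1, osteopontin, had 400, 348, 563 and 555 FPKM (0.58, SE 0.105). Clu, clusterin, had 108, 91.0, 122 and 136 FPKM (0.37, SE 0.120), and the chemokine gene Cxcl10 had 0.932, 1.40, 2.55 and 1.87 (0.57, SE 0.182). The transcription factor gene Myc lay the other way with 1.57, 1.68, 0.662 and 0.921 FPKM (−0.56, SE 0.111). Of 20 cell cycle genes 9 lay above with no overlap (all genes 21.5%) and none below (all genes 16.5%). Their median was 0.12, and 0.03 without wild type 2. Members such as Cdk1, with 0.361, 0.263, 0.617 and 0.470 FPKM, met the mean of 1 FPKM only through the I/R libraries. The count thus takes in low values. Cdc20, an activator of the anaphase-promoting complex, had 0.749, 0.861, 1.78 and 2.06 FPKM (0.69, SE 0.102), and the replication licensing gene Mcm2 had 2.02, 1.67, 2.23 and 2.52 (0.25, SE 0.103).

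Complement and coagulation genes had 5 of 23 below (all genes 4.08%) and 1 above (all genes 5.19%) at an unadjusted p under 0.05. With no overlap 10 lay below (all genes 16.5%) and 2 above (all genes 21.5%). Their median was −0.12, and −0.04 against wild type 2 alone, where 11 were positive and 12 negative. C4b had 6.94, 5.29, 4.22 and 3.24 FPKM, C2 had 4.85, 5.27, 3.54 and 3.92, and Cfi, the protease that inactivates C3b and C4b, had 2.61, 2.73, 1.78 and 2.23. F3, tissue factor, lay above with 7.07, 7.12, 9.39 and 9.20 FPKM (0.35, SE 0.0729). Endothelial genes gave 4 of 19 below (all genes 4.08%) and 1 above (all genes 5.19%) at an unadjusted p under 0.05. With no overlap 6 lay below (all genes 16.5%) and 1 above (all genes 21.5%). Ehd3, found in glomerular endothelium, had 5.41, 6.30, 4.01 and 4.73 FPKM, Flt1, the VEGF receptor 1, had 6.01, 6.71, 4.83 and 5.51, and Robo4 had 4.0, 3.71, 3.26 and 2.92. Emcn, endomucin, lay above with 7.67, 7.38, 9.22 and 8.71, so the list did not go one way.

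The protein-coding genes with the largest differences, taken as the 12 in each direction with no overlap, an unadjusted p under 0.05 and both knockouts at least 0.3 from wild type 2, were led on the high side by Mogat2. It encodes a monoacylglycerol acyltransferase of triglyceride synthesis and had 9.05, 11.2, 17.9 and 22.8 FPKM (0.94, SE 0.193). Gpc1, a cell surface heparan sulfate proteoglycan, had 3.79, 3.25, 6.77 and 8.03 FPKM (0.89, SE 0.114). Ugt2b37, a glucuronosyltransferase of a family with near-identical members, had 69.4, 60.2, 125 and 116 FPKM (0.89, SE 0.121). Mogat2 and Ugt2b37 were also called after I/R, by 1.03 and 1.29 (adjusted p = 0.0343 and 0.00824 in limma). The repressor gene Bcl6 had 8.08, 4.52, 13.0 and 11 FPKM. Ltc4s, leukotriene C4 synthase, had 2.32, 2.07, 5.39 and 3.49 FPKM, and the linker histone gene Hist1h1c had 70.4, 63.0, 129 and 95.7. Sectm1a (2.56, 2.74, 4.01 and 7.47 FPKM) and Fam25c (6.86, 4.39, 8.31 and 11.5 FPKM) followed. Gsta1, Mt2, Calb1 and Cdc20, given above, complete the 12, and the wild-type values of Mt2 rest on few reads.

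On the low side Cd8a came first. Angptl7, a secreted angiopoietin-like protein, had 12.7, 33.5, 8.02 and 6.65 FPKM (−1.39, SE 0.379). Its wild-type libraries differed from each other by more than wild type 1 differed from either knockout. Cyp4a12a, a male-biased fatty acid hydroxylase with close relatives, had 34.7, 75.8, 28.9 and 14.3 FPKM (−1.29, SE 0.414). Wfdc16 had 3.08, 4.99, 1.49 and 0.820 FPKM (−1.22, SE 0.228). Nat8f7, an acetyltransferase of a family of close neighbours, had 8.94, 9.84, 4.06 and 3.35 FPKM (−1.15, SE 0.186). Mchr1, the receptor of melanin-concentrating hormone, had 3.11, 3.47, 1.49 and 1.06 (−0.92, SE 0.154). Wild types of Nat8f7 and Mchr1 lay close together and well apart from both knockouts. Fcamr, a receptor for IgA and IgM, had 12.4, 17.8, 6.92 and 7.86 FPKM, and Cish, an inhibitor of cytokine signaling, had 4.78, 6.76, 2.86 and 2.60. Fam213b (55.9, 53.1, 38.4 and 20.6 FPKM), Tldc2 (9.93, 16.7, 5.07 and 7.71 FPKM), Gimap3 (6.07, 2.16, 1.34 and 1.21 FPKM) and Hspa1b complete the 12. Gimap3, a lymphocyte gene, was highest in wild type 1, as the B and T cell genes were.

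**Figure D4:**
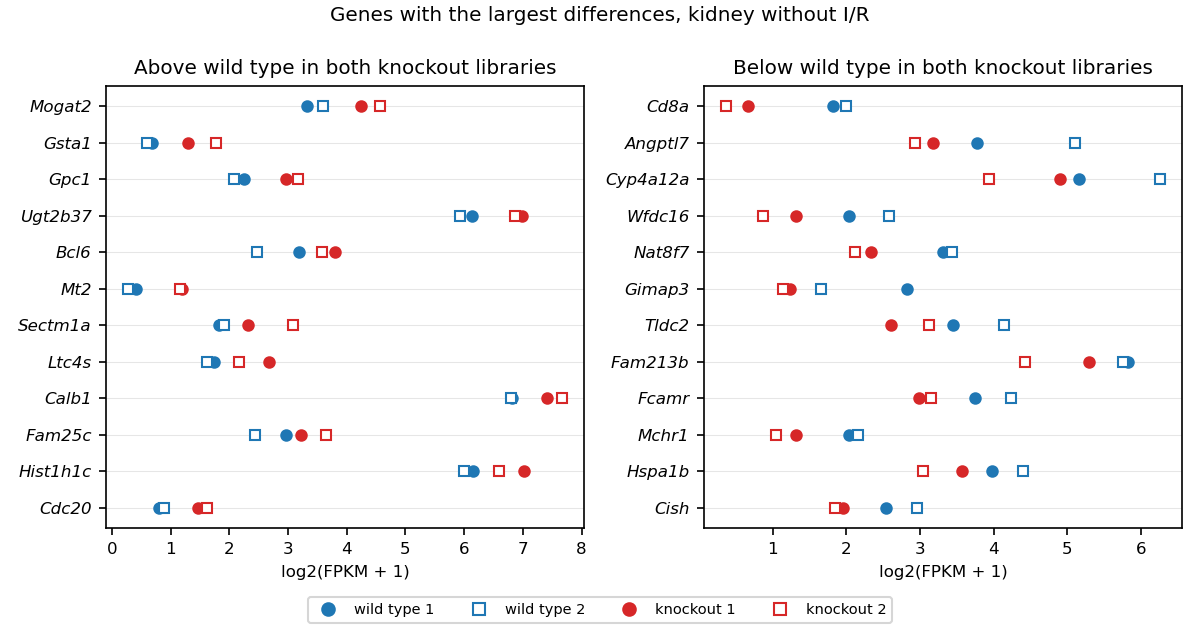
Levels, as log2(FPKM + 1), of the 12 protein-coding genes with the largest differences in each direction in the 4 libraries without I/R, 1 symbol per library. The groups do not overlap for any of the 24, which the choice of genes fixes, and the distance between replicates varies, from Calb1 (111 and 110 FPKM in wild type) to Angptl7 (12.7 and 33.5).

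The remaining lists gave few members at an unadjusted p under 0.05 or none. All 30 cytosolic ribosomal protein genes and 27 splicing genes missed it, with medians of −0.0048 and 0.0041. Of 29 genes of amino acid catabolism 2 lay above (all genes 5.19%) and 2 below (all genes 4.08%), and of 17 hypoxia targets 2 above and 1 below. None of 22 interferon response genes and 15 macrophage genes passed it, and 1 of 20 genes of MHC class I and II did. Against wild type 2 alone 19 of the 22, 12 of the 15 and 19 of the 20 were positive, with medians of 0.15, 0.21 and 0.22 in place of 0.06, −0.04 and 0.03. Against wild type 1 alone the medians were −0.0047, −0.21 and −0.14. Urothelial genes followed 1 library of each genotype, with a summed level of 20.2, 6.94, 26.2 and 9.75 FPKM, so their median of 0.21 became 0.71 against wild type 2 alone.

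The libraries taken after I/R give the genotype difference in other samples. There, 800 genes (6.01%) were called between knockout and wild type, and the interaction, which tests whether the genotype difference changes with I/R, was called for 38 genes (0.286%). In an additive model of genotype and I/R over all 8 libraries 0 genes were called, 1911 had an unadjusted p under 0.05 and the smallest adjusted p was 0.111, while limma-voom on recovered reads called 75. Of the 24 genes with the largest differences without I/R, 12 had the same sign after I/R and 12 the opposite, and 4 were called there. The same sign was seen for 8 of the 12 high genes and 4 of the 12 low ones. Of the 94 genes whose tests are described here 26 were called after I/R, 16 in the same direction and 10 in the opposite one. Kdm6a, Calb1, Klk1, S100g, Mogat2, Ugt2b37, Cyp51 and Fbp1 are among those in the same direction. Of the 9 protein folding genes given above with both knockouts below both wild types, 5 had a positive difference after I/R, namely Hspa8 and Hsph1 (both 0.13), Creld2 (0.17), Hspa5 (0.12) and Manf (0.08). The other 4 stayed negative, Xbp1 at −0.38, Hspa1b at −0.56, Hspa1a at −0.26 and Pdia4 at −0.02, and none of the 9 was called there. For Nr1d1 and Tef the sign turned, to 0.46 and 0.38 (adjusted p = 0.0353 and 0.0401 in limma). For these clock genes the interaction was not called.

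**Figure D5:**
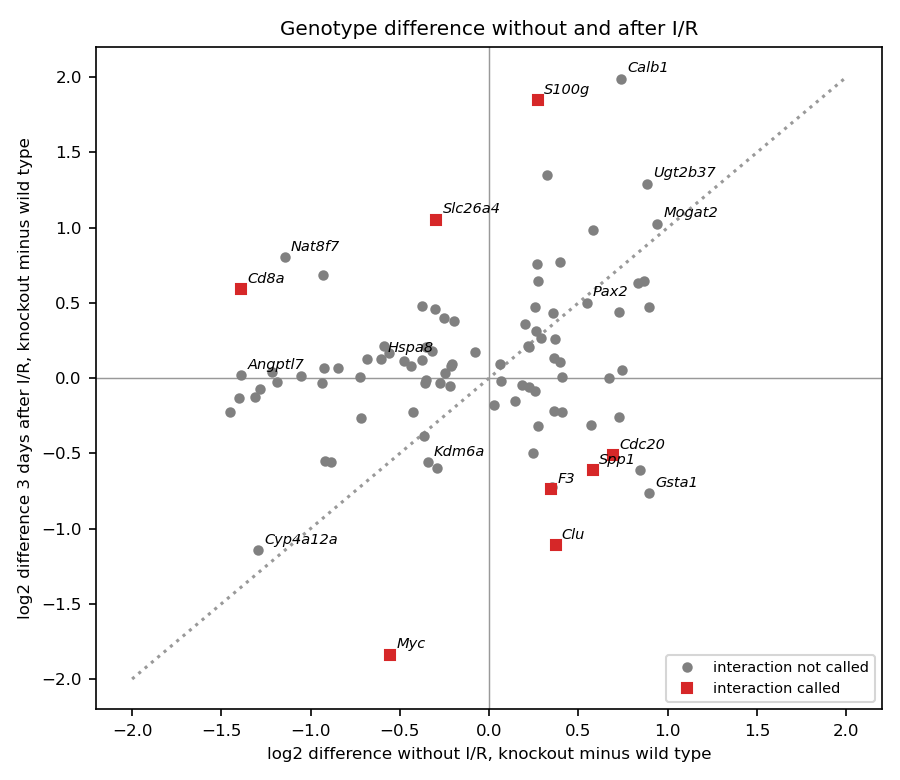
Log2 difference between knockout and wild type without I/R (horizontal axis) and 3 days after I/R (vertical axis) for the named genes, with the dotted line of equal differences and red squares where the interaction was called. Gm11702, at −3.04 and −0.69, lies outside the axes. The 2 axes use different libraries, and Calb1 and Ugt2b37 lie high on both while Cd8a, Clu, Spp1, F3 and Cdc20 lie on opposite sides of 0.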

How the data were processed

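RNA of whole kidney was sequenced after poly-T purification, per the labels' protocols, in 8 libraries of 4 groups of 2, grouped by their titles. The authors deposited FPKM per gene with coordinates and gene lengths. The tools were featureCounts 1.5.0-p3 and DESeq2 1.20.0 and the build GRCm39, per the submitters' processing notes. Not given in the sources used here are aligner, strand setting and how FPKM was computed, so reads of overlapping antisense genes cannot be told apart. The deposited coordinates match GRCm38: of 54409 genes matched by identifier 53499 had identical positions.

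FPKM times gene length gave whole reads for 100% of values in every library (tolerance 0.05 reads). These recovered reads served a check with limma-voom, which called 0 genes without I/R. At the depth of each library 3 reads correspond to 0.154 to 0.208 FPKM for a gene of 1 kb. Replicates differed by more than counting noise (mean chi-square per gene 10.5 between the wild-type and 22.0 between the knockout libraries), so no libraries were merged.

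Genes whose FPKM averaged 1 or more in the 8 libraries were tested on log2(FPKM + 1), which understates the change of low genes. limma 3.58.1 in R 4.3.3, with data.table (version 1.17.8), was fitted with a mean per group over all 8 libraries (4 residual and 2.90 prior degrees of freedom, mean-variance trend), two-sided, with Benjamini-Hochberg adjustment over all tested genes. An additive model of genotype and I/R had 5 residual degrees of freedom. The procedure was tested on simulated data.

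The members and the 45 gene lists (884 entries) were chosen with earlier results of these data known. Lists are described by counts beside all tested genes, without a set test. Named are the called gene, the 12 largest differences in each direction under the conditions given with them, up to 4 members with the smallest unadjusted p of each list described, fixed cell markers, and Kdm6a, Uty, Kdm6b and Pax2. Some genes selected in these ways are left out of the text. Dctn1, Grb2, Hspa5, Pdia6, Kmt2c, Kmt2d, Cd8b1, Cd4, Marco and genes named only from another setting were added after their values had been seen. Alternatives were another pseudocount, other filters, scales and models, a replicate block and leaving out each library.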

Additional observations from a re-analysis of the deposited data

Results flagged for a closer look

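For 9 of the named genes the genotype difference without I/R differed from that 3 days after I/R by the interaction test in limma, adjusted over all genes. Cd8a lay 1.39 below wild type without I/R and 0.59 above it after I/R, an interaction of 1.98 (adjusted p = 0.0419). Slc26a4 turned in the same way, from −0.30 to 1.05, an interaction of 1.35 (adjusted p = 0.0302). For S100g the difference was 0.27 without I/R and 1.85 after it, an interaction of 1.57 (adjusted p = 0.0312). Gm11702 had an interaction of 2.35 (adjusted p = 0.0261), from 0 reads in knockout without I/R to 8 in both knockout libraries after it.

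The other 5 had a negative interaction. Clu went from 0.37 to −1.11 (−1.48, adjusted p = 0.0450), Spp1 from 0.58 to −0.61 (−1.19, adjusted p = 0.0450) and F3 from 0.35 to −0.74 (−1.08, adjusted p = 0.0302). These are an injury marker pair and tissue factor, and all 3 lay above both wild-type libraries in both knockout libraries without I/R. Cdc20 went from 0.69 to −0.51 (−1.21, adjusted p = 0.0450). Myc lay below wild type in both, by −0.56 and −1.84 (−1.28, adjusted p = 0.0450).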

How the results depend on the processing

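The count of 1 called gene without I/R became 2 with a pseudocount of 0.1, 10 with no filter on low values (30208 genes tested), 0 with only the 4 libraries without I/R in the fit and 0 with limma-voom. It was 1 with a mean of at least 5 FPKM, with an equal sum of reads in genes, with a median-ratio scale and with no trend, and ranged from 1 to 6 when single libraries were left out. Under these last alternatives Gm11702 was called each time. The 1233 genes at an unadjusted p under 0.05 became 2139 with no filter and 753 with a mean of at least 5 FPKM, which test more and fewer genes, and ranged from 900 to 2385 when single libraries were left out. With an equal sum of reads in genes 564 lay above and 639 below, against 690 and 543. The count of 0 over both treatments became 1 with no filter, 75 with limma-voom (21 higher and 54 lower) and 0 to 2 when single libraries were left out, and no value exists with only the 4 libraries without I/R. The cause of these moves was not tested otherwise.

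The replicate numbers of the titles share only a number: the deviations of wild type and knockout libraries with the same number correlated at 0.161, and the other 5 pairs of groups lay between −0.0827 and 0.0460. With a replicate block 1 gene was called without I/R, 1231 had an unadjusted p under 0.05 and 1 was called over both treatments.

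Of the 94 genes recomputed under each alternative, 4 with groups that overlap turned in sign when single libraries were left out: Uty between −0.025 and 0.14, Kdm6b between −0.19 and 0.033, Pdia6 between −0.038 and 0.096 and Dctn1 between −0.055 and 0.18. The others of these genes did not turn in any alternative run, and cell markers such as Umod and Slc12a3 were not among them. With 2 libraries a group and differences between them of this size, small differences are not detectable, and a gene not called is not shown to be equal. FPKM steps of 1 read are large for short genes such as Gm11702.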

Other observations

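Gapdh, often used as a reference gene, had 4.17, 5.00, 30.2 and 8.28 FPKM in wild type 1 and 2 and knockout 1 and 2 without I/R, so knockout 1 alone lay far above the other 3 libraries. After I/R it had 41.3 and 3.04 FPKM in wild type and 4.19 and 3.39 in knockout, so there 1 wild-type library was the high one. Mfsd2a, a lysophospholipid transporter gene, had 20.2, 8.24, 49.8 and 18.9 FPKM in wild type 1 and 2 and knockout 1 and 2 without I/R, with overlap. Both were chosen after their values had been seen, and Gapdh has many near-identical pseudogenes, so its reads are uncertain. The summed level of the 29 immediate early genes was 543, 475, 601 and 365 FPKM in wild type 1 and 2 and knockout 1 and 2, and the 2 knockouts were the highest and the lowest library.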
